A study of Mus musculus with 24 samples.

Results

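The collagen genes were taken as every gene whose mouse symbol is Col, digits, a, digits, which gave 44 of the 26611 genes with an identifier in the count table. Of these, 38 had enough reads to be tested between genotypes and 6 did not (Col4a3, Col4a4, Col6a4, Col6a5, Col6a6 and Col10a1). The 8 members below 1 CPM (counts scaled to a common library size in the usual CPM unit, with totals scaled between libraries by the TMM method) on average over the 24 libraries were those 6 together with Col8a1 (0.691 CPM) and Col28a1 (0.514 CPM), which passed the read filter. The RNA was polyadenylated RNA of pharyngeal arches 1 and 2, the swellings of the embryonic head from which the jaws and much of the ear develop, from female C57BL/6 mouse embryos at E10.5. There were 6 genotype groups of 4 biological replicates, and the series was set up to compare single and combined loss of Kat6a and Dlx5.

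By their labels, the wild type embryos carried both alleles of both genes, the Kat6a heterozygous and Dlx5 heterozygous embryos lacked 1 allele of the named gene, the double heterozygous embryos lacked 1 allele of each, and the Dlx5 homozygous and Kat6a homozygous embryos lacked both alleles of the named gene with the other gene intact. The sources used here do not say how the alleles were built or which embryos were littermates. The embryos came from 2 mouse facilities, which the labels call batches. The wild type and the Kat6a homozygous libraries were all of batch 2, all Dlx5 homozygous libraries were of batch 1, the single heterozygous groups had 3 libraries of batch 2 and 1 of batch 1, and the double heterozygous group had 1 of batch 2 and 3 of batch 1.

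Collagens are proteins of 3 polypeptide chains wound into a triple helix, and each gene encodes 1 kind of chain. Fibrillar collagens build the fibres of connective tissue and cartilage, network collagens build basement membranes and sheets, and other classes decorate fibrils, anchor epithelia or span the cell membrane. Most of the arch mesenchyme comes from the neural crest and later makes the cartilage, bone and dermis of the face, tissues in which collagens are the main structural proteins. The protein made from Kat6a adds acetyl groups to histones, and that made from Dlx5 is a homeodomain protein known for its part in patterning the lower jaw.

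Libraries held 10406452 to 28198111 counts. The counts per gene did not show the targeted deletions: Kat6a was at 211.2 to 241.5 CPM in the libraries labelled Kat6a homozygous against 148.2 to 247.1 in wild type, and Dlx5 was at 57.64 to 67.39 CPM in the libraries labelled Dlx5 homozygous against 64.54 to 78.96 in wild type. Dlx5 was lower, at 34.51 to 42.39 CPM, in the libraries labelled Kat6a homozygous. A gene's total cannot show a deletion that leaves most of its transcript, so the homozygous groups are called as labelled below. Arch mesenchyme markers summed to 1682 to 2191 CPM over the 24 libraries, with all 8 of the list tested. Neuron and glia markers summed to 72.4 to 520.4 CPM in wild type, 62.3 to 594.6 in Kat6a heterozygous, 90.9 to 428.6 in Dlx5 heterozygous and 64.6 to 333.5 in Kat6a homozygous labelled libraries, and replicate 2 was the highest in each of these 4 groups. They summed to 170.6 to 351.4 in the double heterozygous group and to 57.0 to 80.4 in the Dlx5 homozygous labelled group. The notochord marker Noto was at 0 in 22 libraries and the otic marker Oc90 in 19.

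The sequences upstream of 4 collagen genes are given first, because these are the members whose changes are described most closely: Col8a2, the member with the largest called decrease, and Col3a1, Col1a2 and Col6a3, the members that were called higher together in 1 comparison. Each is the 250 bases that end just before the start site in RefSeq (GRCm38.p6), written 5′ to 3′ on the gene's own strand. The windows are chr4:126286544-126286793 for Col8a2 (plus strand), chr1:45311288-45311537 for Col3a1 (plus strand), chr6:4505368-4505617 for Col1a2 (plus strand) and chr1:90843972-90844221 for Col6a3 (minus strand). The annotated Col6a3 gene reaches base 90844001, so its window belongs to a start site inside the gene and overlaps it. Capitals mark matches, on either strand, to 1 of 5 short motifs: the TATA box, searched as TATAAA, the CCAAT box by its own letters, the GC box searched as GGGCGG, the homeodomain core searched as TAATTA and the Runx core searched as TGTGGT. No motif shares its letters with another of the 5.
Col8a2: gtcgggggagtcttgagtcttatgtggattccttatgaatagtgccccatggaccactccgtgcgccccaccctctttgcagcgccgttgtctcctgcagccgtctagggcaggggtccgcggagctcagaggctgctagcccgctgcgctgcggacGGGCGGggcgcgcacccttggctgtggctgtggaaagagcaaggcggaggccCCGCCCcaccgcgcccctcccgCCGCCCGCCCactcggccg
Col3a1: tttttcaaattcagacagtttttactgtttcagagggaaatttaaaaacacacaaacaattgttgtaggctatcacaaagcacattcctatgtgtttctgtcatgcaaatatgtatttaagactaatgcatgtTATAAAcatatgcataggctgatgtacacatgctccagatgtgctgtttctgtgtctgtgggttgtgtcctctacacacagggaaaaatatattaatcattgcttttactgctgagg
Col1a2: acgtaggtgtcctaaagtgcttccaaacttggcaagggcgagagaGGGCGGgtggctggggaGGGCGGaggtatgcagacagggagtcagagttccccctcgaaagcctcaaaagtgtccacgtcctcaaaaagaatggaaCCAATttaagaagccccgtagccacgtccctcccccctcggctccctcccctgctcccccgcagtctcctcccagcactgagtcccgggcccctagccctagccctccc
Col6a3: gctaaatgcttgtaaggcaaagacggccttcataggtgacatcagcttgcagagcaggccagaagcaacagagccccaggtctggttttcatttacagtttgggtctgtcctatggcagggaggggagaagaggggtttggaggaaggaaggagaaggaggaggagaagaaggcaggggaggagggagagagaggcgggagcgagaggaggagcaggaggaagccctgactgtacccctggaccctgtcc
Upstream of Col8a2 there were 4 GC box matches, of which the last 2 overlap each other, and the window had 24 CpG dinucleotides. The Col1a2 window held 2 GC box matches and 1 CCAAT match, the Col3a1 window held 1 TATAAA match 117 bases before the start and no CpG, and the Col6a3 window held none of the 5 motifs. Among all 32851 windows of this length in the RefSeq table, 32.7% held GGGCGG, 33.8% CCAAT, 12.4% TATAAA, 14.0% TGTGGT and 4.84% TAATTA. Of the 38 windows of the 35 collagen genes with an entry, 22 held GGGCGG, 13 CCAAT, 5 TATAAA, 3 TGTGGT and 2 TAATTA. The median share of G and C letters was 59.0% over the collagen windows and 52.4% over all windows. The part of this difference in the GGGCGG count was not tested. There was no entry for Col1a1, Col2a1, Col4a3, Col5a2, Col9a3, Col12a1, Col14a1, Col22a1 or Col26a1. These matches describe letters only.

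Collagen transcripts made up 0.491% ± 0.0184 (SD, n = 4) of the counts of wild type arches. A few genes held most of this: the 10 most abundant members took 86.07% of all collagen CPM over the series. To set genes against each other, levels were divided by gene length (RPKM, which is the CPM divided by the length in kilobases). On that scale Col2a1, the chain of cartilage type II collagen, led at 182.2 ± 9.04 RPKM (SD, n = 4), which lay above 98.2% of all genes tested. Col18a1, a basement membrane collagen whose end is released as endostatin, followed at 116.9 ± 9.20 RPKM, and Col3a1, the type III collagen of soft connective tissue, at 113.4 ± 9.97 RPKM. These latter levels do not differ beyond their spread.

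Col26a1 (88.2 ± 7.57 RPKM) and Col4a1 (87.6 ± 8.50 RPKM) formed the next pair, also within each other's spread, and were followed by Col4a2 (60.3 ± 6.91 RPKM) and Col9a1 (56.8 ± 3.85 RPKM). Col4a1 and Col4a2 are the chains of the basement membrane network found in nearly all tissues, and Col9a1 encodes a chain of type IX collagen, which coats type II fibrils. Col1a2 (43.0 ± 5.98 RPKM), Col23a1 (34.3 ± 2.56 RPKM) and Col5a2 (19.4 ± 1.06 RPKM) completed the 10 highest. Col1a1, the partner of Col1a2 in type I collagen of bone and skin, stood lower, at 13.2 ± 1.41 RPKM. Col10a1, the collagen of hypertrophic cartilage, was at 0.0 to 0.179 CPM over all libraries.

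**Figure D1:**
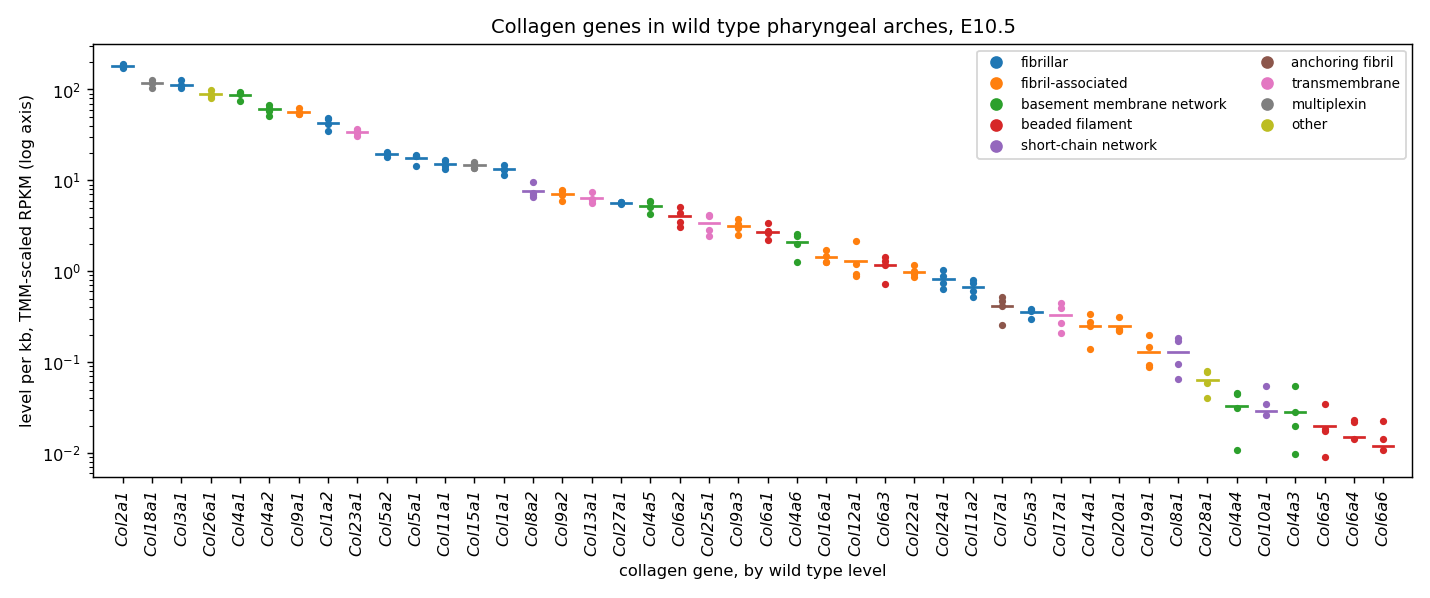
Level of each of the 44 collagen genes in wild type arches, in RPKM on a log axis, with 1 point for each of 4 libraries (3 values of 0 are not drawn), a bar at the group mean and colours for the collagen class. The genes run from Col2a1 at 182.2 RPKM to Col6a6 at 0.0120 RPKM.

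That plot of wild type levels takes in every class, though no class covers the whole range. The 11 fibrillar members held 48.0% of collagen CPM over the series, the 6 basement membrane network members 20.7%, the 2 multiplexins (Col15a1 and Col18a1) 14.4%, the 9 fibril-associated members 5.62%, the 4 transmembrane members 4.83%, and Col26a1 with Col28a1 4.76%. The 6 beaded filament members held 1.01%, the 3 short-chain network members 0.621% and Col7a1, the anchoring fibril collagen of skin, 0.0915%. By group, the collagen share of counts was 0.498% ± 0.0280 in Kat6a heterozygous, 0.528% ± 0.0226 in Dlx5 heterozygous, 0.522% ± 0.0107 in double heterozygous, 0.498% ± 0.0250 in Dlx5 homozygous labelled and 0.469% ± 0.0175 in Kat6a homozygous labelled libraries (SD, n = 4 each).

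Each of the 5 mutant groups was set against wild type in 1 model of all genes and libraries that includes the batch (edgeR quasi-likelihood test). Genes with a p under 0.05 after Benjamini-Hochberg adjustment over the 14506 tested genes are named as called, and changes are batch-adjusted log2 fold changes with standard errors. All 5 comparisons share the same 4 wild type libraries. In Kat6a homozygous labelled arches 5 of the 38 tested collagen genes were called, with Col3a1 and Col6a3 higher and Col8a2, Col9a1 and Col2a1 lower. Over all genes tested, 1.53% were called in that comparison, 0.469% higher and 1.06% lower. In double heterozygous arches 3 were called, Col3a1, Col1a2 and Col6a3, all higher, against 0.448% of all genes in either direction and 0.296% higher.

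No collagen gene was called by edgeR in Kat6a heterozygous arches (0.0% of all genes), in Dlx5 heterozygous arches (0.0% of all genes) or in Dlx5 homozygous labelled arches (0.0551% of all genes). At an unadjusted p under 0.05 these 3 comparisons had 5, 17 and 9 collagen genes, of which 5, 17 and 8 were higher. The corresponding shares of all genes at that level were 11.4%, 11.3% and 9.97% in either direction and 5.29%, 5.75% and 4.68% higher. DESeq2 called 2, 1 and 3 collagen genes in the same order, beside 0.743%, 0.251% and 0.323% of the genes it gave an adjusted p. Limma voom called 0, 0 and 2, beside 0.0%, 0.0% and 0.117% of all genes.

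The median log2 fold change of the 38 tested members was 0.21 in Dlx5 heterozygous, 0.13 in double heterozygous, 0.12 in Dlx5 homozygous labelled, 0.12 in Kat6a heterozygous and -0.04 in Kat6a homozygous labelled arches, beside medians of -0.0019 to 0.0092 over all genes. Positive values were found for 32, 29, 25, 27 and 16 of the 38 in that order, where 52.3%, 51.7%, 49.5%, 52.7% and 51.8% of all genes were positive. The Dlx5 heterozygous group had the most positive values of the 5 comparisons and 0 called members. The read filter keeps genes seen in as few libraries as 1 group holds, so that counts and medians over the 38 are a description and do not stand for all 44 members.

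**Figure D2:**
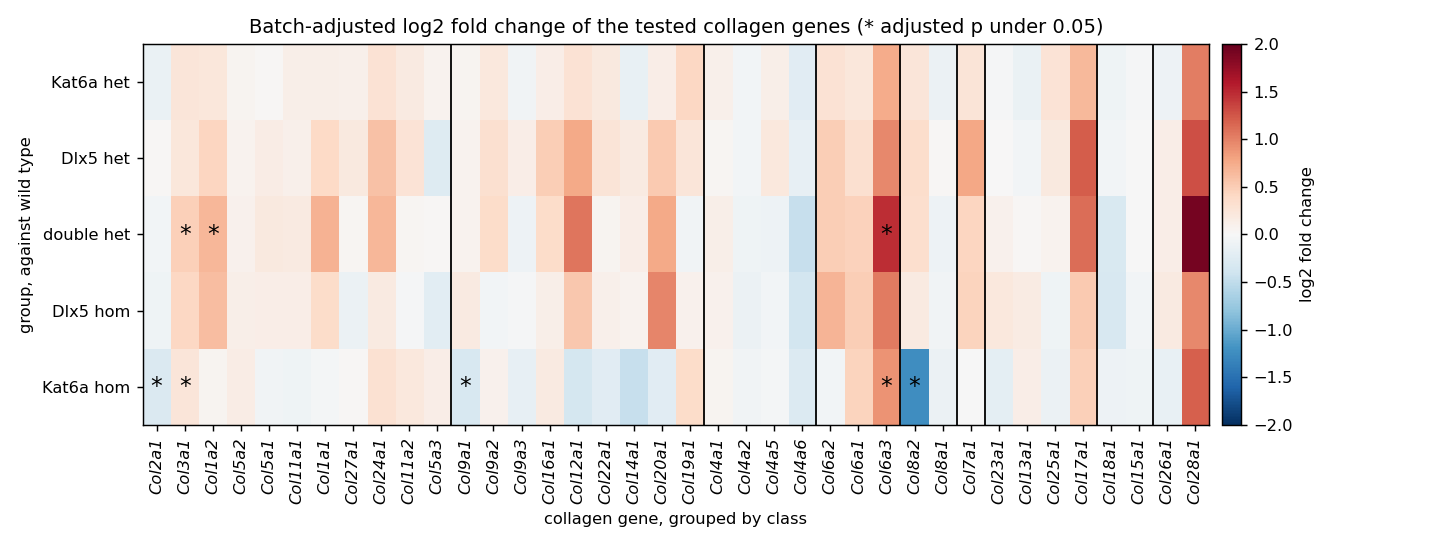
Batch-adjusted log2 fold change against wild type (colour scale from -2 to 2) of the 38 tested collagen genes, in columns by class and rows by genotype group as labelled. Asterisks mark an adjusted p under 0.05, which 5 members reached in the Kat6a homozygous and 3 in the double heterozygous comparison.

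Among the fibrillar members, Col3a1 was called in both comparisons. In wild type its level was 579.9, 628.4, 708.6 and 607.1 CPM. In double heterozygous libraries it was 870.0 in batch 2 and 810.2, 732.7 and 808.4 in batch 1, so that all 4 lay above the wild type libraries. With the batch in the model Col3a1 rose by 0.48 on the log2 scale (SE 0.07, edgeR adjusted p = 0.00261), or 1.40-fold. Before batch adjustment it averaged 805.3 CPM in the double heterozygous group and 631.0 in wild type. Over 35 alternative analyses of this comparison its values were 0.35 to 0.53.

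In Kat6a homozygous labelled libraries Col3a1 was at 808.5, 724.5, 753.4 and 706.0 CPM, of which the lowest overlapped the highest wild type library. The rise there was 0.25 (SE 0.06, edgeR adjusted p = 0.0351). It was called in 21 of 35 alternative analyses of that comparison, against 32 of 35 in the double heterozygous one. Arch mesenchyme markers summed to 1690 to 2053 CPM in the Kat6a homozygous labelled group, 1737 to 2191 in the double heterozygous group and 1682 to 2070 in wild type. Of the 8 markers, Dlx2 was called lower in the Kat6a homozygous labelled group and none was called in the double heterozygous one, and their part in the Col3a1 results was not tested. In the other groups Col3a1 had positive values that did not pass: 0.24 in Kat6a heterozygous (edgeR adjusted p = 0.158), 0.23 in Dlx5 heterozygous (0.217) and 0.41 in Dlx5 homozygous labelled arches (0.0568).

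Col1a2, which encodes the second chain of type I collagen, was at 215.2, 247.7, 242.0 and 180.4 CPM in wild type. The double heterozygous libraries held 336.5 in batch 2 and 285.0, 238.3 and 273.9 in batch 1, and the lowest of them fell inside the wild type range. With the batch in the model Col1a2 rose by 0.66 (SE 0.11, edgeR adjusted p = 0.00851), or 1.58-fold. Before batch adjustment Col1a2 averaged 283.4 CPM in the double heterozygous group and 221.3 in wild type. Over the 35 alternative analyses of this comparison Col1a2 had values of 0.36 to 0.72. In Kat6a homozygous labelled libraries it was at 248.7, 216.4, 237.3 and 217.8 CPM, with a change of 0.06 (SE 0.09, edgeR adjusted p = 0.833). Dlx5 homozygous labelled libraries gave 269.3, 284.6, 211.1 and 251.4 CPM and a value of 0.61 (SE 0.12, edgeR adjusted p = 0.0568).

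Col1a1 had the same sign as Col1a2 in double heterozygous arches but did not pass: 0.69 (SE 0.20, edgeR adjusted p = 0.131), from 96.6, 105.3, 59.0 and 74.7 CPM against 61.5, 70.3, 63.2 and 54.1 in wild type. Over the 24 libraries the log2 levels of these 2 chains had a Pearson correlation of 0.806 and a Spearman correlation of 0.839, with libraries, depth and batches shared.

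Col2a1, the most abundant member, moved the other way from Col3a1 in Kat6a homozygous labelled arches. Wild type libraries held 987.0, 958.7, 912.8 and 882.9 CPM and the labelled homozygous ones 772.5, 772.2, 786.7 and 741.2, without overlap. Col2a1 fell by 0.28 on the log2 scale (SE 0.07, edgeR adjusted p = 0.0394), or 1.22-fold. The other 4 groups spanned 778.7 to 1028 CPM, and their changes lay between -0.14 and 0.02 with no call. Markers listed for notochord and otic tissue, which also make type II collagen, summed to 11.2 to 17.4 CPM in the Kat6a homozygous labelled group. They summed to 16.4 to 19.6 in wild type, with 0 of 2 tested called. The sum was mostly Shh and Foxa2, with medians over all libraries of 12.07 and 3.438 CPM. The other listed genes had medians of 0.0 to 0.3513, so the sum cannot gauge these tissues. The part of these tissues in the Col2a1 and Col9a1 results was not tested.

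The remaining fibrillar members (Col1a1, Col5a1, Col5a2, Col5a3, Col11a1, Col11a2, Col24a1 and Col27a1) were called in none of the 5 comparisons with wild type. Col5a2, which lies tail to tail with Col3a1 on chromosome 1, 24624 bases from it, was at 128.0, 134.5, 132.1 and 118.6 CPM in wild type and 138.9, 142.8, 147.1 and 142.1 in Kat6a homozygous labelled libraries. Its groups did not overlap, and its change was 0.15 (SE 0.06, edgeR adjusted p = 0.253). In double heterozygous arches Col5a2 stood at 0.09 (SE 0.08, edgeR adjusted p = 0.641) where Col3a1 was called.

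Of the fibril-associated collagens, Col9a1 was the only called member among the 9 tested in comparisons with wild type. Its level was 208.8, 222.4, 241.6 and 211.0 CPM in wild type and 191.1, 175.2, 166.4 and 176.4 in Kat6a homozygous labelled libraries, without overlap. Col9a1 fell by 0.32 (SE 0.07, edgeR adjusted p = 0.0139), or 1.25-fold. The other groups held 189.4 to 252.2 CPM, with changes of 0.05 to 0.18 and no call.

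The other type IX chains did not move with Col9a1 beyond their error. Col9a2 was at 16.1 to 21.5 CPM in wild type and 19.5 to 21.3 in Kat6a homozygous labelled libraries (0.09, SE 0.15, edgeR adjusted p = 0.851). Col9a3 was at 7.20 to 10.7 and 5.85 to 9.04 CPM (-0.16, SE 0.15, edgeR adjusted p = 0.692). Col19a1, the tail-to-tail neighbour of Col9a1 at 4944 bases, had its largest value in Kat6a heterozygous arches, 0.42 (SE 0.28, edgeR adjusted p = 0.587), at 1.49 to 2.34 CPM against 0.924 to 2.07 in wild type.

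Col12a1, whose product binds type I fibrils, had the largest value of the class in double heterozygous arches, 1.07 (SE 0.38, edgeR adjusted p = 0.229). Its libraries were spread widely, from 10.3 to 24.9 CPM in wild type and from 15.0 to 33.7 in the double heterozygous group. Col20a1 had a value of 0.98 (SE 0.46, edgeR adjusted p = 0.487) in Dlx5 homozygous labelled arches, at 0.725 to 1.57 CPM. Col14a1, Col16a1 and Col22a1 were at 0.825 to 12.8 CPM over all libraries and were not called.

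**Figure D3:**
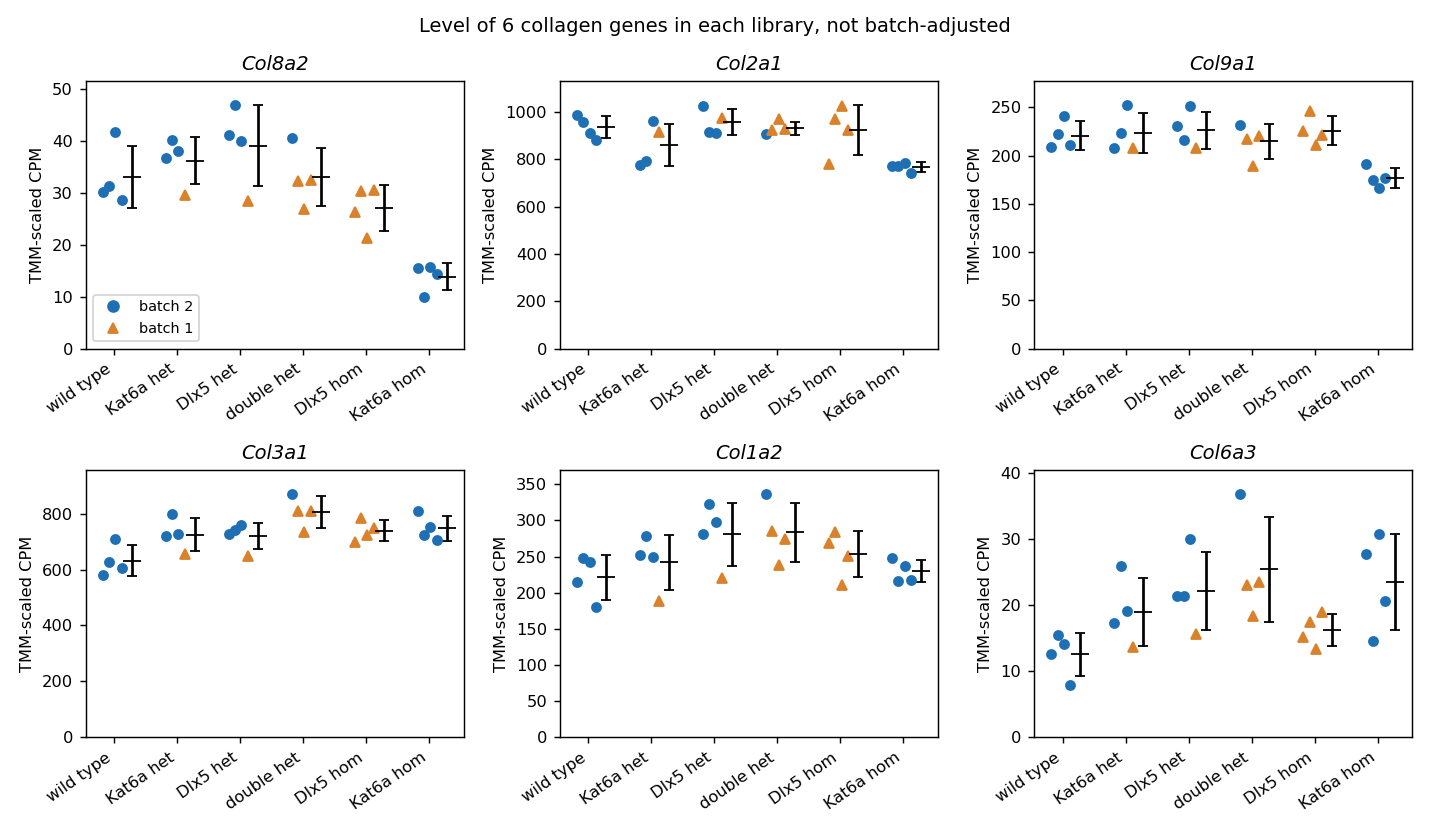
TMM-scaled CPM, not adjusted for batch, of the 6 called members in each library of each genotype group as labelled, with circles for batch 2, triangles for batch 1 and the mean ± SD (n = 4) beside the points. Col8a2 sits at 9.995 to 15.7 CPM in the Kat6a homozygous labelled libraries, and no other library is under 21.2 CPM.

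Col8a2 had the largest called decrease of the family. It encodes a short collagen that forms hexagonal sheets, known from the membrane under the corneal endothelium. In the plot of library levels, wild type held 30.1, 31.3, 41.7 and 28.7 CPM and the Kat6a homozygous labelled group 15.5, 9.995, 15.7 and 14.3 CPM. Every library of the other 5 groups lay between 21.2 and 46.7 CPM, above all 4 of these.

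Col8a2 fell by 1.24 on the log2 scale against wild type (SE 0.13, 95% interval -1.52 to -0.96 from a t distribution with 17 degrees of freedom, edgeR adjusted p = 2.86e-06), or 2.36-fold. The call held in all 35 alternative analyses, with values from -1.32 to -1.12. It was also lower than in Kat6a heterozygous arches by -1.48 (SE 0.14, edgeR adjusted p = 8.95e-07), a comparison added after the levels were seen. In bulk tissue, fewer cells that express the gene and less RNA per cell cannot be told apart. Endothelial markers summed to 344.6 to 411.8 CPM in the Kat6a homozygous labelled group and 319.6 to 368.1 in wild type, with 0 of 10 called, and their part in the result was not tested.

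In the other mutant groups the Col8a2 values were positive and not called, from 0.18 in Dlx5 homozygous labelled (edgeR adjusted p = 0.738) to 0.34 in Dlx5 heterozygous (0.297) and double heterozygous arches (0.335). The Dlx5 homozygous labelled value turned to -0.28 without the batch term. Within the single heterozygous groups the batch 1 library was the lowest in each, at 29.6 CPM against 36.6 to 40.1 in batch 2 for Kat6a and at 28.3 against 40.0 to 46.7 for Dlx5. Col8a1, the partner of Col8a2 in type VIII collagen, was at 0.178 to 1.29 CPM over all libraries and had a value of -0.11 (SE 0.47, edgeR adjusted p = 0.946) in the Kat6a homozygous labelled group.

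Type VI collagen, the beaded filament around cells, gave the largest called increases. Col6a3 encodes its longest classical chain. Wild type libraries held 12.6, 15.5, 14.2 and 7.90 CPM, and the double heterozygous ones 36.8 in batch 2 and 23.0, 18.4 and 23.5 in batch 1, so that all 4 lay above wild type.

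With the batch in the model Col6a3 rose by 1.48 in double heterozygous arches (SE 0.25, edgeR adjusted p = 0.0153), or 2.79-fold. Before batch adjustment Col6a3 averaged 25.44 CPM in the double heterozygous group and 12.55 in wild type. Over the 35 alternative analyses of this comparison Col6a3 had values of 1.01 to 1.58. In Kat6a homozygous labelled libraries it was at 27.8, 14.6, 30.7 and 20.7 CPM, with replicate 2 inside the wild type range, and rose by 0.90 (SE 0.21, edgeR adjusted p = 0.0335), or 1.87-fold. The remaining groups had values of 0.75 in Kat6a heterozygous (edgeR adjusted p = 0.226), 0.96 in Dlx5 heterozygous (0.162) and 1.04 in Dlx5 homozygous labelled arches (0.256), none of them called. The Dlx5 homozygous labelled libraries held 13.4 to 19.0 CPM of Col6a3, which overlapped wild type. These groups share no batch, so the value of 1.04 rests on the batch term, and alternative analyses gave 0.37 to 1.14.

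The other type VI chains had smaller values. Col6a1 was at 8.74 to 13.4 CPM in wild type, 11.3 to 17.7 in Kat6a homozygous labelled libraries (0.45, SE 0.14, edgeR adjusted p = 0.109) and 11.4 to 14.3 in double heterozygous ones (0.46, SE 0.17, edgeR adjusted p = 0.232). Col6a2, in tandem with Col6a1 on chromosome 10, was at 11.6 to 19.0 CPM in wild type and 12.1 to 16.5 in Kat6a homozygous labelled libraries (-0.05, SE 0.13, edgeR adjusted p = 0.91). It was at 13.5 to 21.0 CPM in double heterozygous libraries (0.50, SE 0.15, edgeR adjusted p = 0.138). In Dlx5 homozygous labelled ones it was at 16.99 to 19.83 CPM (0.68, SE 0.17, edgeR adjusted p = 0.211). The tandem genes Col6a4, Col6a5 and Col6a6 were at 0.0 to 0.660 CPM in every library.

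The calls in double heterozygous arches were lost without replicate 1, the only library of batch 2 in that group. The values without it were 0.51 for Col3a1, 0.72 for Col1a2 and 1.40 for Col6a3, with larger standard errors and no collagen gene called. Within batch 2 that library stands alone, and the values were 0.46, 0.60 and 1.55 in the same order. Without a batch term 1 member was called, Col3a1. Neuron and glia markers were higher in value in this group, with all 14 tested positive, a median of 1.13 and none called. With their score as a covariate the same 3 members were called.

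For the Kat6a homozygous labelled group, all of whose libraries share batch 2 with wild type, the fit within batch 2 called 1 member, Col8a2, against 5 over all libraries. Its values there were -0.29 for Col2a1, -0.33 for Col9a1, 0.24 for Col3a1 and 0.89 for Col6a3. Without replicate 1 or without replicate 3 of this group, 2 members were called, Col8a2 and Col9a1. Without wild type replicate 1, 2 or 4 there were 3 calls. Leaving out the 4 libraries high in neuron and glia markers for their group left 3, Col8a2, Col6a3 and Col6a1. The replicate number as a block left 4 calls in this comparison and 2 in the double heterozygous one, and the lost member was Col6a3 in both (adjusted p = 0.0662 and 0.0503).

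Of the basement membrane network, none of the 4 tested type IV genes was called in any comparison with wild type. Col4a1 was at 497.4 to 625.2 CPM in wild type and 551.8 to 649.2 CPM over the other 5 groups, with changes of 0.04 to 0.12. Col4a2 was at 331.8 to 436.5 and 342.2 to 400.3 CPM, with changes of -0.11 to -0.05. These genes lie head to head on chromosome 8, where their annotated 5′ ends overlap by 85 bases.

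Col4a5 and Col4a6, the head-to-head pair of the X chromosome with 1275 bases between their starts, were at 28.04 to 46.34 and 8.50 to 17.1 CPM over all libraries. The Col4a6 values were negative in all 5 comparisons, from -0.46 in double heterozygous arches (SE 0.21, edgeR adjusted p = 0.339) to -0.16, and Col4a5 ranged from -0.10 to 0.22. Col4a4 and Col4a3, head to head on chromosome 1, were at 0.0791 to 0.827 and 0.0 to 0.656 CPM and were not tested.

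Transmembrane, anchoring and multiplexin members had no calls against wild type. Col23a1 was at 204.4, 207.4, 190.1 and 175.9 CPM in wild type and 186.9, 177.1, 160.1 and 155.1 in Kat6a homozygous labelled libraries, which overlap (-0.20, SE 0.06, edgeR adjusted p = 0.135). Col17a1, a collagen of the hemidesmosomes of epithelia, had values of 0.48 to 1.22 in the 5 comparisons, on levels of 0.577 to 7.54 CPM. Its largest value, 1.22 in Dlx5 heterozygous arches (SE 0.46, edgeR adjusted p = 0.321), included 1 library at 7.54 CPM and 3 at 2.23 to 2.49.

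Col7a1 had a value of 0.77 in Dlx5 heterozygous arches (SE 0.27, edgeR adjusted p = 0.291), at 3.83 to 10.02 CPM against 2.33 to 4.74 in wild type. Epithelial markers summed to 343.4 to 518.7 CPM in that group and 343.0 to 479.9 in wild type, and their part in the Col7a1 and Col17a1 values was not tested. Col18a1 was at 606.6 to 735.5 CPM in wild type and had values of -0.30 in double heterozygous (SE 0.11, edgeR adjusted p = 0.211) and -0.31 in Dlx5 homozygous labelled arches (SE 0.12, edgeR adjusted p = 0.4). Col26a1 was at 217.7 to 266.2 CPM in wild type and 202.9 to 230.8 in Kat6a homozygous labelled libraries (-0.15, SE 0.06, edgeR adjusted p = 0.192).

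Since triple helices need their chains together, ratios of RPKM between chains were compared between Kat6a homozygous labelled and wild type libraries, which share batch 2. Not all were ratios of partner chains, as Col3a1 to Col1a2 and Col3a1 to Col5a2 set chains of different collagen types against each other. The test was chosen after seeing the data, with Col6a3 and Col9a1 already called between the same groups, so it is not independent of those calls. Of 10 ratios tested by an exact two-sided permutation test of 4 against 4 libraries, 3 reached the smallest p that design allows, 0.0286. None stayed under 0.05 after adjustment over the 10 (adjusted exact p = 0.0952). Those 3 were Col6a3 to Col6a1 (0.418 ± 0.0613 in wild type and 0.569 ± 0.0720 in the labelled homozygous group, SD, n = 4), Col4a1 to Col4a2 (1.46 ± 0.0614 and 1.58 ± 0.0262) and Col9a1 to Col9a2 (8.11 ± 0.726 and 6.15 ± 0.531). In the same order, the means of the other 4 groups were 0.463 to 0.699, 1.53 to 1.62 and 6.33 to 9.13. For Col6a3 to Col6a1 and for Col4a1 to Col4a2, that range took in the labelled homozygous mean. The Col6a2 to Col6a1 ratio was 1.47 ± 0.240 in wild type and 1.06 ± 0.0683 in the labelled homozygous group (exact permutation p = 0.0571, adjusted 0.114), while the means of the other 4 groups were 1.41 to 1.62.

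**Figure D4:**
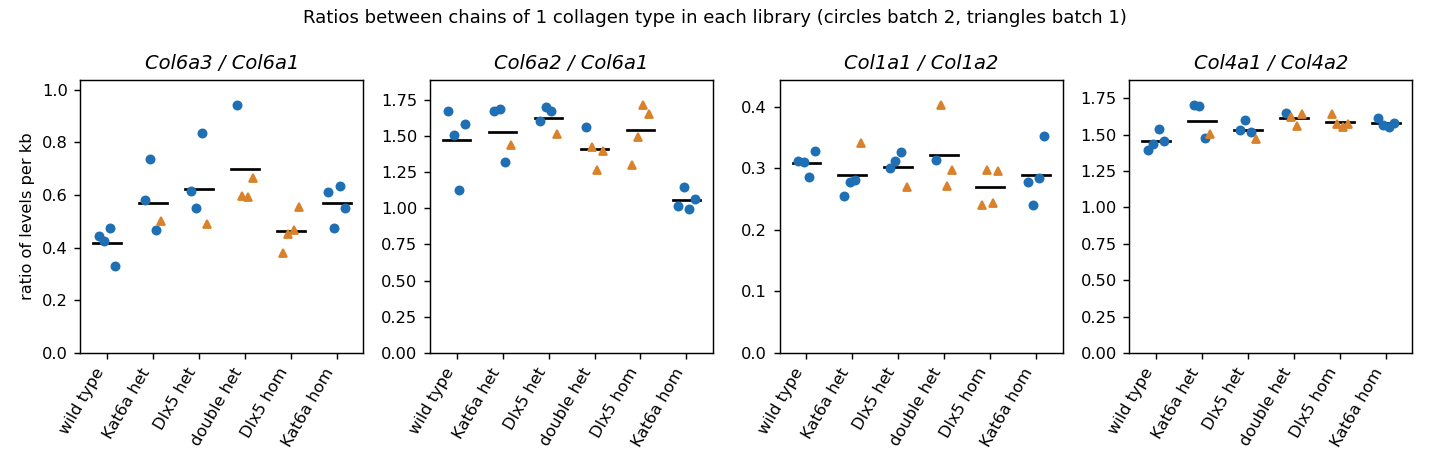
Ratio of levels per kilobase between partner chains of type VI, type I and type IV collagen in each library, with circles for batch 2, triangles for batch 1 and a bar at the group mean. The Kat6a homozygous labelled libraries lie at 0.994 to 1.15 for Col6a2 to Col6a1, where wild type spans 1.13 to 1.67.

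As the plot of chain ratios shows, the Col1a1 to Col1a2 ratio stayed between 0.241 and 0.403 in all 24 libraries, and its means were 0.270 to 0.321. The Col6a3 to Col6a1 ratio was highest in double heterozygous arches, 0.699 ± 0.167, and reached 0.944 in its batch 2 library. Over the 24 libraries the log2 levels of Col6a3 and Col6a1 had a Pearson correlation of 0.773 and a Spearman correlation of 0.719. For Col4a1 and Col4a2 these were 0.598 and only 0.244, and for Col5a1 and Col5a2 they were -0.16 and -0.206.

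Companion genes were followed whose products make, process, bind or degrade collagens, partner them in the matrix or regulate collagen genes. Creb5, Runx2, Ccn2, Foxl1 and Foxf2 were listed as regulators. The 9 lists held 107 genes, of which 90 were tested. In Kat6a homozygous labelled arches 4 were called higher and 3 lower, and the median of the 90 was 0.02, beside 0.469% of all genes called higher and 1.06% lower. Of those called higher, Postn, Creb5 and Runx2 were on view in earlier results of these libraries, so that count is not independent evidence. Postn, a matrix protein that binds type I collagen, rose by 0.79 (SE 0.07, edgeR adjusted p = 7.05e-08). Ccn2, a matrix growth factor that acts with TGF-β, fell by 0.76 (SE 0.11, edgeR adjusted p = 0.00025).

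Pcolce, the enhancer of the enzyme that trims fibrillar procollagens, fell by 0.40 (SE 0.07, edgeR adjusted p = 0.00177), whereas the crosslinking enzyme gene Loxl2 rose by 0.27 (SE 0.07, edgeR adjusted p = 0.0361). The transcription factor genes Creb5 and Runx2 rose by 1.00 (SE 0.21, edgeR adjusted p = 0.0108) and 0.81 (SE 0.18, edgeR adjusted p = 0.0202). Kdelr2, a retrieval receptor of the secretory pathway, fell by 0.18 (SE 0.04, edgeR adjusted p = 0.0434). None of the 15 genes of prolyl and lysyl modification was called in this comparison, and 4 of them had positive values.

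In double heterozygous arches, where 0.296% of all genes were called higher, 5 companion genes were called, all higher: Postn (0.60, edgeR adjusted p = 0.00125), Creb5 (1.39, 0.0118), Runx2 (1.13, 0.0202), Foxl1 (1.47, 0.0221) and Foxf2 (0.76, 0.0406). In Dlx5 homozygous labelled arches Creb5 (1.46, edgeR adjusted p = 0.0488) and Postn (0.51, 0.0403) were called higher, where 0.0551% of all genes were called in either direction. No companion gene was called in the single heterozygous groups. Postn, Creb5, Runx2, Foxl1 and Foxf2 were on view in earlier results of the same libraries when the lists were made. Neither the number of them called nor their direction is therefore independent evidence, in this or any other comparison.

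Other comparisons asked how the groups differ from each other. The non-additive part, in which the values of both single heterozygous groups are taken from the double heterozygous one and wild type is added back, was called for 0 collagen genes by edgeR, DESeq2 or limma voom (0.00689%, 0.00472% and 0.0% of all genes), with 1, Col4a5, at an unadjusted p under 0.05, where 5.4% of all genes were. Col6a3 had values of 0.75 and 0.96 in the single heterozygous groups beside 1.48 in the double heterozygous one, and Col3a1 had 0.24 and 0.23 beside 0.48. Between Dlx5 homozygous labelled and double heterozygous arches no collagen gene was called by any of the 3 tools (0.0%, 0.0425% and 0.276% of all genes by edgeR, DESeq2 and limma voom), with 3 at an unadjusted p under 0.05 beside 7.18% of all genes.

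Against double heterozygous arches, the Kat6a homozygous labelled group had 4 collagen genes called lower and 0 higher, where 1.08% of all genes were called and 0.903% were lower. These were Col8a2 (-1.58, SE 0.16, edgeR adjusted p = 9.46e-06), Col1a2 (-0.60, SE 0.11, edgeR adjusted p = 0.00584), Col9a1 (-0.39, SE 0.08, edgeR adjusted p = 0.0187) and Col26a1 (-0.29, SE 0.07, edgeR adjusted p = 0.0336). Without double heterozygous replicate 1, only Col8a2 was called, as also without the batch term. DESeq2 called 7 members (beside 1.75% of all genes) and limma voom 12 (4.49%), and Col26a1 was called in 21 of 35 alternative analyses. Of the marker lists, Pdgfra (arch mesenchyme) and Myf5 and Msc (muscle progenitor) were called lower in this comparison, and their part in it was not tested. Against Kat6a heterozygous arches, Col8a2 and Col9a1 (-0.37, SE 0.07, edgeR adjusted p = 0.00727) were called lower, where 0.641% of all genes were called and 0.524% were lower, and without Kat6a heterozygous replicate 3 only Col8a2 remained. Pdgfra was called lower in that comparison too.

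The comparison between facilities took in several of the same members. Between batch 1 and batch 2, estimated within the 3 heterozygous groups, no collagen gene was called by edgeR (0.0345% of all genes), 1 by DESeq2 (0.162%) and 2 by limma voom (0.372%), while 9 were lower and 2 higher at an unadjusted p under 0.05, beside 3.67% and 2.85% of all genes. Col1a2 had the smallest adjusted p, with -0.41 (SE 0.09, edgeR adjusted p = 0.091), and Col8a2 (-0.46), Col6a3 (-0.67), Col6a2 (-0.38) and Col3a1 (-0.18) were also lower in value in batch 1. For Dlx5 homozygous labelled arches, which share no batch with wild type, genotype and facility are told apart only through this term. Over alternative analyses of these arches against wild type, values were 0.20 to 0.68 for Col1a2 and 0.23 to 0.46 for Col3a1. Those for Col6a2 were 0.30 to 0.785 and those for Col20a1 were 0.19 to 1.15.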

How the data were processed

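Per the labels' protocols, libraries came from Illumina's TruSeq Stranded mRNA kit. CASAVA 1.8.2, featureCounts and the mm10 build are named in the submitters' processing notes. The sources used here give no aligner, annotation release or strand setting, so reads where genes overlap, as at the Col4a1 and Col4a2 starts, may count for the wrong gene. Raw counts per gene were deposited with gene lengths and numeric gene identifiers, as 1 table whose columns equalled the 24 sample files. Of 27179 entries, 568 without an identifier (0.182% to 0.259% of a library's counts) were left out, and 25275 of 26611 identifiers had a symbol in the RefSeq table of GRCm38.

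The test was edgeR 4.0.16 in R 4.3.3: filterByExpr by group (14506 genes), TMM scaling, robust quasi-likelihood fit of 6 group means and a batch term over 24 libraries (17 residual degrees of freedom, common BCV 0.0896), Benjamini-Hochberg adjustment over all genes. Standard errors were derived from the test statistic. CPM used TMM-scaled totals, RPKM the deposited lengths, and log2 CPM a prior count of 2. Depth was 10406452 to 28198111 counts per library. P-values set a difference between groups against the spread between these libraries, estimated over all 6 groups.

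Members, classes, companion lists and tests were chosen with earlier results of these data known. Both comparisons of Kat6a homozygous labelled libraries with other mutants, the ratio test and the removal of neuron-rich libraries were chosen after seeing the data. Named members were the 10 highest in wild type, every called member, chains of the same type, the 3 largest changes per comparison at 1 CPM or more, and neighbouring pairs.

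Alternatives were DESeq2 1.42.0, limma 3.58.1 voom with quality weights, no filter, RLE scaling, a model with no batch, fits within 1 batch or to the compared groups alone, a replicate block, a neuron and glia score as covariate, length-corrected offsets, and each library left out. The labels give no origin for replicate numbers. Batch-adjusted deviations from group means correlated over 0.1 in all 4 same-numbered pairs for wild type and Kat6a heterozygous libraries alone (0.151 to 0.656), and the block called 0 collagen genes there, as without it. The chi-square per degree of freedom between replicates was 3.04 to 23.3, and no library was treated as a repeat of another. Scripts were tested on simulated data.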

Additional observations from a re-analysis of the deposited data

Results flagged for a closer look

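In 5 of 150 sets of 4 libraries (25 named and tested members in 6 groups), 1 library lay far from the other 3, a gap over the range above 0.829, which chance gives in about 1 in 20 sets. The number flagged was not above that rate. Col17a1 was at 7.54 CPM in Dlx5 heterozygous replicate 3, against 2.23 to 2.49 CPM in the other libraries of that group. The same gene was at 4.905 CPM in Kat6a homozygous labelled replicate 3, against 1.35 to 1.94 CPM. Col18a1 was at 574.9 CPM in Dlx5 homozygous labelled replicate 1, below the 632.6 to 639.0 CPM of the others. Col20a1 was at 1.326 CPM in wild type replicate 1, against 0.924 to 0.981 CPM, and Col8a1 was at 0.5534 CPM in Kat6a heterozygous replicate 2, against 0.694 to 0.710 CPM. Over all 24 libraries together Col20a1 had 347 counts and Col8a1 had 214, so these last gaps are of few reads.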

How the results depend on the processing

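Numbers here are counts of called collagen genes unless stated. Kat6a homozygous labelled against wild type (5) gave 3 with limma voom, without the filter, without the batch term and without neuron-rich libraries, 1 within batch 2 and 1 with only the groups compared. Double heterozygous against wild type (3) gave 1 without the batch term, 0 within batch 2 and 0 with only the groups compared. Dlx5 homozygous labelled against wild type (0) gave 3 with DESeq2, 2 with voom, 2 with the neuron and glia score as covariate and 1 with length-corrected offsets. Within-batch and group-only fits could not be fitted there, as the groups share no batch. Kat6a heterozygous (0) gave 2 with DESeq2 (Col3a1 and Col6a3). Dlx5 heterozygous (0) gave 1 with DESeq2 and 1 without neuron-rich libraries. Dlx5 homozygous labelled against double heterozygous (0) gave 1 within batch 1 and 1 with only the groups compared (Col9a2). The batch comparison (0) gave 1 with DESeq2, 2 with voom, 2 with only the groups compared and 1 with length-corrected offsets. Kat6a homozygous labelled against Kat6a heterozygous (2) gave 1 within batch 2, 1 with only the groups compared and 1 without neuron-rich libraries, and against double heterozygous (4) 7 with DESeq2, 12 with voom, 1 without the batch term, 1 within batch 2 and 2 with only the groups compared. The cause was not tested, beyond the fewer libraries in fits within a batch or of the groups compared.

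With each library left out in turn, the ranges were 2 to 5 for Kat6a homozygous labelled, 0 to 4 for double heterozygous, 0 to 2 for Dlx5 homozygous labelled, and 0 to 0 for both single heterozygous groups against wild type. They were 0 to 0 for the non-additive part and for Dlx5 homozygous labelled against double heterozygous, 0 to 1 for the batch, 1 to 2 for Kat6a homozygous labelled against Kat6a heterozygous and 1 to 6 against double heterozygous. The 2 for Dlx5 homozygous labelled (Col1a2 and Col3a1) came without wild type replicate 3, and 1 came without Kat6a heterozygous replicate 3 or Dlx5 homozygous labelled replicate 3. For Kat6a homozygous labelled against double heterozygous, 2 remained without Dlx5 heterozygous replicate 4 or Kat6a homozygous labelled replicate 4. The batch count was 1 (Col1a2) without wild type replicate 4 or Dlx5 homozygous labelled replicate 3.

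The replicate block gave 4 for Kat6a homozygous labelled, 2 for double heterozygous, 3 for Kat6a homozygous labelled against double heterozygous, and no other count moved under this pairing. Between wild type and Kat6a homozygous labelled libraries, same-numbered correlations were 0.0949 to 0.569, not all over 0.1, and 5 of 8 libraries correlated best with their own number. Replicate 2 was highest in neuron and glia markers in both groups, and whether the numbers mark a shared source was not tested. In Kat6a homozygous labelled arches, log2 values with a library left out ranged from -0.11 (without its replicate 3) to 0.67 for Col17a1 and from -0.030 (without wild type replicate 4) to 0.11 for Col1a2, changing sign, and Col8a2 in Dlx5 homozygous labelled arches was at -0.28 without the batch term, with none of these called.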
